A study of Rattus norvegicus with 10 samples.

Results

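The genes described here are nuclear genes of respiratory complexes II to V, mostly subunits, taken by name from the deposited gene table: Sdha to Sdhd for complex II, Cyc1 and the Uqcr genes for complex III, the Cox4 to Cox8 genes for complex IV and the Atp5 genes for complex V. The names matched 42 of the 12828 rows of the table and gave 40 gene symbols, since Uqcrb and Cox6b1 stand on 2 rows each. Complex II had 4 rows, complex III 10, complex IV 13 and complex V 15, and all 42 rows were protein-coding. The study describes the tissue as the arcuate nucleus (ARC) of the hypothalamus. It was dissected by hand from the brains of 10 Wistar rat dams right after they gave birth. During pregnancy 5 dams ate a diet with folic acid (the 5X-FA group) and 5 ate one with 5-methyltetrahydrofolate, the folate form found in blood (the 5X-MTHF group), both labelled as 5X intake. Poly-A RNA was sequenced, so each value is a sum over all cell types of the dissected piece, and fewer cells of a type and less RNA per cell cannot be told apart.

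The value used for each gene is its average log2 CPM (reads per 1000000) over all libraries, which is the authors' mean and comes without an SD or an n. It pools both diets, so no difference between 5X-FA and 5X-MTHF was measured here and no spread between dams was obtained. A CPM is a share of reads and is not divided by transcript length. A gene with more CPM than another therefore took more reads, which gives no order of transcript number between spliced genes.

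Complex II oxidises succinate in the citric acid cycle and hands the electrons to ubiquinone. Complex III passes them from ubiquinol to cytochrome c and complex IV passes them on to oxygen, and both move protons across the inner mitochondrial membrane. Complex V, the ATP synthase, lets the protons flow back and makes ATP, which neurons spend mainly on pumping ions. All subunits of complex II are coded in the nucleus, whereas complexes III, IV and V each combine nuclear subunits with some coded by mitochondrial DNA.

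The 42 rows had a median average log2 CPM of 6.80, against 5.02 over the 12383 protein-coding rows of the table. The median of all rows was 4.94, and 37 of the 42 rows (88.1%) lay above it. Together the 42 rows held 6451 CPM, or 0.644% of the reads in the table. Of these rows, 28 had an average log2 CPM between 6 and 8. The values ran from 0.47 for Cox6a2 to 10.05 for Atp5f1b.

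**Figure D1:**
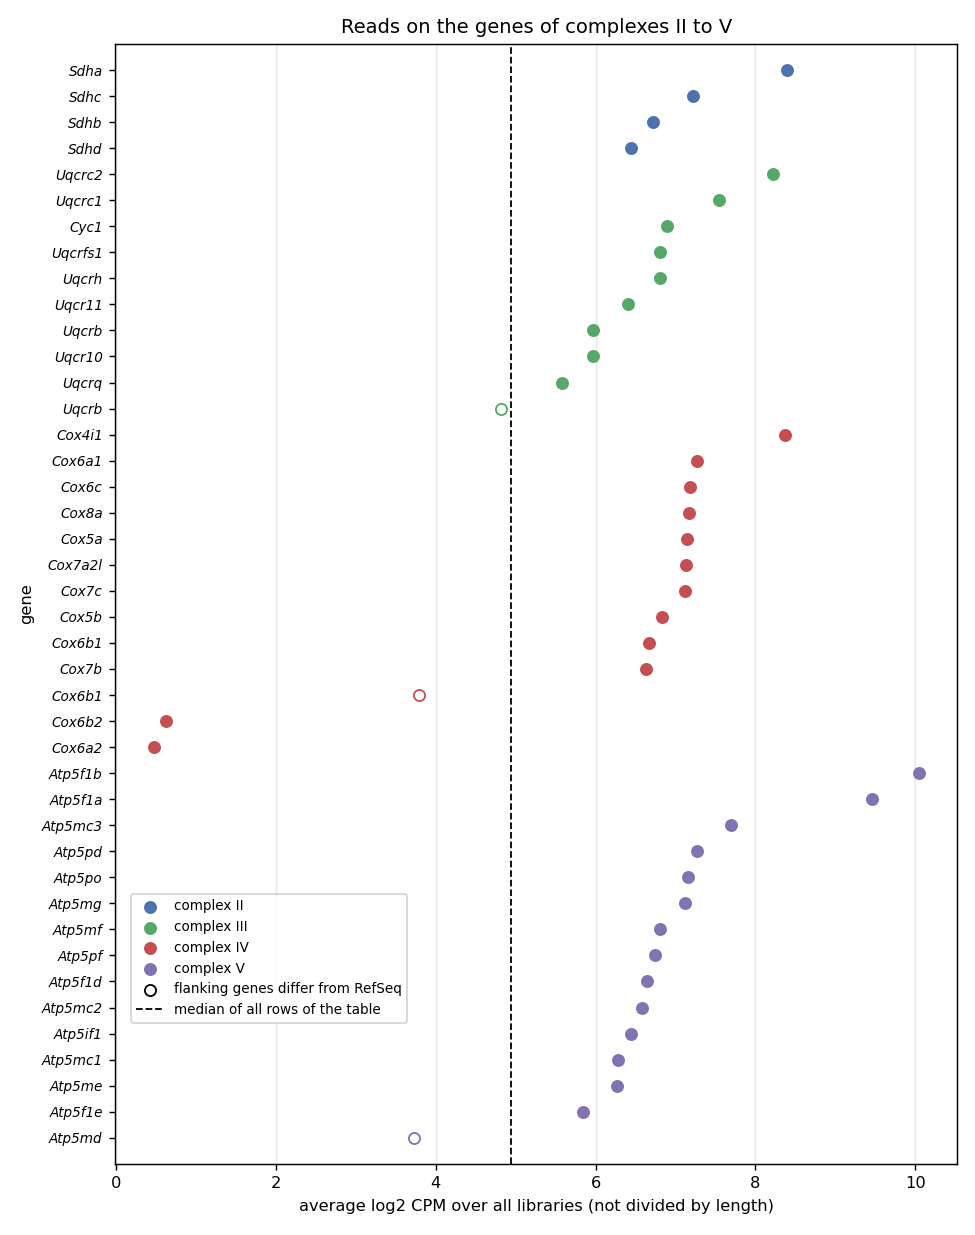
Average log2 CPM over all libraries (x axis) of each of the 42 rows (y axis), coloured by complex, with the median of all rows of the table as a dashed line. Open circles mark the 3 rows whose flanking genes differ from those of the RefSeq gene of that name; these and the rows of Cox6a2 and Cox6b2 are the 5 points to the left of the line.

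The promoters of these genes were read for short motifs, as a feature that the choice by name did not use. RefSeq promoter windows of the GRCr8 build, 250 bases before to 50 bases after the start of the gene, were matched by symbol for 33 of the 40 symbols (82.5%). Cox6a1, Cox6c, Cyc1, Uqcr11, Uqcrb, Atp5pd and Atp5md had no matched window. The letters searched on both strands were GCGCANGCG for NRF1, CCGGAAG for GABP and other ETS factors, AANATGGC for YY1, TCAAGGTCA for estrogen-related receptors (ERR), GGGCGG for Sp1, CCAAT for the CCAAT box, TATAAA for the TATA box and TGACGTCA for the cyclic AMP response element (CRE). No match of one motif overlapped a match of another in these windows. NRF1, GABP and YY1 are known regulators of nuclear genes for respiration. A match is a description of letters and does not show that a factor binds.

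The YY1 letters were found in 13 of the 33 windows (39.4%), against 10.2% of the 9437 windows of genes in the table and 8.02% of all 19005 protein-coding genes. In 9 of these 13 matches the letters touched or followed the start of the gene. The letters contain ATGG, which is also how a start codon followed by G reads. Whether any of these matches is a start codon was not tested. In the 250 bases before the start alone, the share was 12.1%, against 4.90% for the genes of the table. On the strand of the gene alone it was 24.2%, against 6.97%. In a longer form, AAGATGGC followed by GGC, the letters were found in 3.03% of the 33 windows and 2.0% of the genes of the table. For each complex, the match nearest to the start is printed 5′ to 3′ on the strand of the gene, to show how close to the start these letters lie, with the motif or its reverse complement in capitals.
Sdhc of complex II, GRCr8 chr13:86098004-86098033, minus strand: ggccggaactcAAGATGGCtgcgctcttgc
Uqcrc1 of complex III, GRCr8 chr8:118468211-118468240, plus strand: acggaagttagAAGATGGCggcgtccgcag
Cox8a of complex IV, GRCr8 chr1:213833609-213833638, minus strand: cggctattgcgGCCATCTTgacttcctgac
Atp5po of complex V, GRCr8 chr11:44657464-44657493, minus strand: ctgcccgggaaAAGATGGCcgcaccagcaa
In Sdhc the match ran from base 4 to base 11 after the start, and in Atp5po from base 2 to base 9. In Uqcrc1 it ran from base -1 to base 7 and in Cox8a from base -4 to base 4, so that both spanned the start. The match of Cox8a is on the strand opposite to the gene and the other 3 are on the strand of the gene.

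The GABP/ETS letters were found in 12 of the 33 windows (36.4%), against 17.0% of the genes of the table and 11.2% of all protein-coding genes. Complex II had them in 2 of 4 windows, complex III in 3 of 6, complex IV in 3 of 10 and complex V in 4 of 13. Of the 16 matches, 13 lay wholly before the start. On the strand of the gene alone, they were found in 4 windows (12.1%), against 10.01% of the genes of the table. The nearest matches of complexes II, III and IV are printed in the same way, as examples of letters that were spread over all 4 complexes.
Sdhd of complex II, GRCr8 chr8:59850604-59850633, minus strand: cgacataactgCTTCCGGgccgtagggtga
Uqcrq of complex III, GRCr8 chr10:38089982-38090011, minus strand: ttccgctcctcCCGGAAGtgacgtgcaaag
Cox4i1 of complex IV, GRCr8 chr19:65630375-65630404, plus strand: accgtcttgctCTTCCGGtgcgggacccgc
In Uqcrq the letters read CCGGAAG on the strand of the gene, and in Sdhd and Cox4i1 they read as the reverse complement.

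The NRF1 letters were found in 8 of the 33 windows (24.2%), against 13.3% of the genes of the table and 8.05% of all protein-coding genes. Complex V accounted for 5 of these 8 windows, those of Atp5mc2, Atp5mc3, Atp5me, Atp5mg and Atp5po. Sdha, Uqcrc1 and Cox7a2l were the others, 1 in each remaining complex. Sdha carried 3 matches, more than any other of the 8 windows. On the strand of the gene alone, they were found in 5 windows (15.2%), against 8.29% of the genes of the table. In a longer form, with an opening T and T as the open letter, they were found in 9.09%, against 1.91%. With a closing C the shares were 18.2% and 10.1%.
Sdha of complex II, GRCr8 chr1:30764542-30764571, plus strand: gcggctcggtGCGCAAGCGcagtctatcgc
Uqcrc1 of complex III, GRCr8 chr8:118468174-118468203, plus strand: actccaccctGCGCATGCGtagcgcggctt
Cox7a2l of complex IV, GRCr8 chr6:16936551-16936580, plus strand: gtccaaaggaCGCTTGCGCatctgtcatag
Atp5mc3 of complex V, GRCr8 chr3:79220637-79220666, minus strand: agccgcaccgCGCTTGCGCacccagcccca
These are again the matches nearest to the start in each complex, printed as an example of where the letters lie. In Uqcrc1 the NRF1 letters ran from base -39 to base -31, just ahead of the YY1 letters printed for the same gene.

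The other 5 motifs did not share a direction. The ERR letters were found in 2 of the 33 windows, those of Sdhd and Atp5mc3 (6.06%), against 0.233% of the genes of the table, and in none on the strand of the gene alone, against 0.138%. The count of 2 is too small to rank, and only the match of Atp5mc3 lay before the start. The Sp1 letters were found in 11 windows (33.3%), a lower share than the 63.7% of the genes of the table, and on the strand of the gene alone in 21.2%, against 43.5%. The CCAAT letters were found in 12 windows (36.4%), against 37.6% of the genes of the table, and on the strand of the gene alone in 21.2%, against 20.6%. The TATA letters were found in 2 windows, those of Uqcr10 and Atp5mg (6.06%), against 6.36%, and on the strand of the gene alone in 3.03%, against 4.12%. The CRE letters were found in 2 windows, those of Sdhb and Cox8a (6.06%), against 3.17%, and before the start in 3.03%, against 2.92%. Over all protein-coding genes, the shares on either strand were ERR 0.353%, Sp1 43.1%, CCAAT 38.4%, TATA 13.1% and CRE 2.22%.

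**Figure D2:**
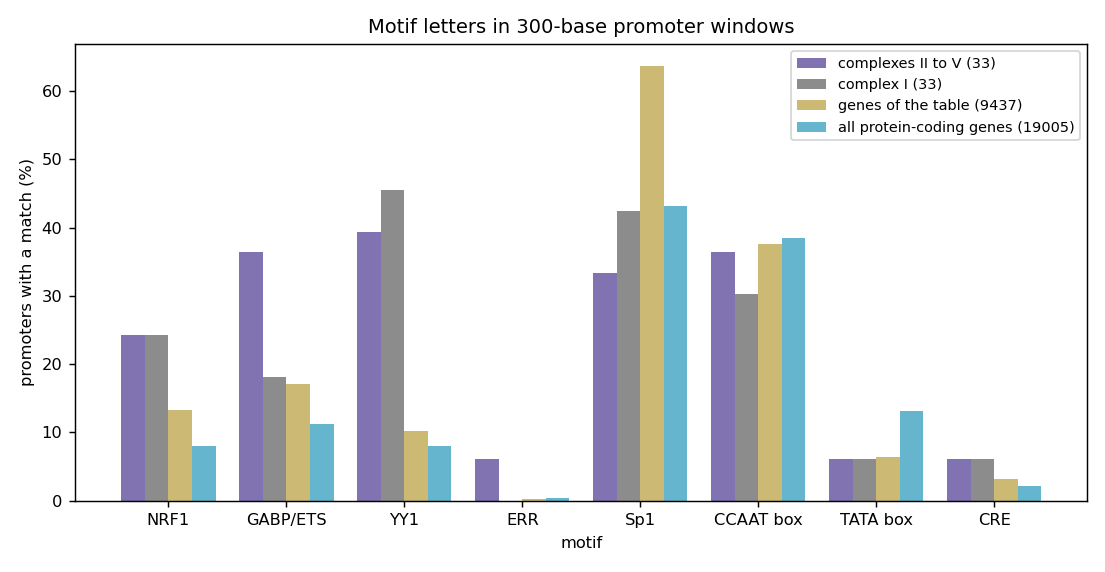
Percent of 300-base promoter windows (y axis) with a match on either strand to each of 8 motifs (x axis), for complexes II to V, complex I, the genes of the table and all protein-coding genes, with the number of windows in the legend. The bars of complexes II to V and of complex I stand above those of the genes of the table for NRF1, GABP/ETS and YY1 and below them for Sp1. For GABP/ETS the gap of complex I is small, at 18.2% against 17.0%.

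At least 1 of NRF1, GABP/ETS and YY1 was found in 23 of the 33 windows (69.7%), against 33.9% of the genes of the table. At least 2 of the 3 were found in 9 windows (27.3%), against 6.30%. These 9 were Sdha and Sdhb of complex II, Uqcrc1 of complex III, Cox8a of complex IV, and Atp5f1a, Atp5me, Atp5mg, Atp5pf and Atp5po of complex V. In the bases before the start alone, at least 1 was found in 17 windows (51.5%), against 27.7% of the genes of the table, and at least 2 in 4 windows (12.1%), against 3.68%. On the strand of the gene alone, at least 1 was found in 12 windows (36.4%), against 22.5%, and at least 2 in 5 windows (15.2%), against 2.66%. Complex I, read in 33 windows on either strand, had at least 1 of the 3 in 22 windows (66.7%) and at least 2 in 6 (18.2%). On the strand of the gene alone, complex I had at least 1 in 20 windows (60.6%) and at least 2 in 2 (6.06%). In the bases before the start alone, it had at least 1 in 14 windows (42.4%) and at least 2 in 4 (12.1%). On either strand within complex I, the YY1 letters were found in 15 windows (45.5%), the NRF1 letters in 8 (24.2%) and the GABP/ETS letters in 6 (18.2%). These shares were not tested against each other.

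**Figure D3:**
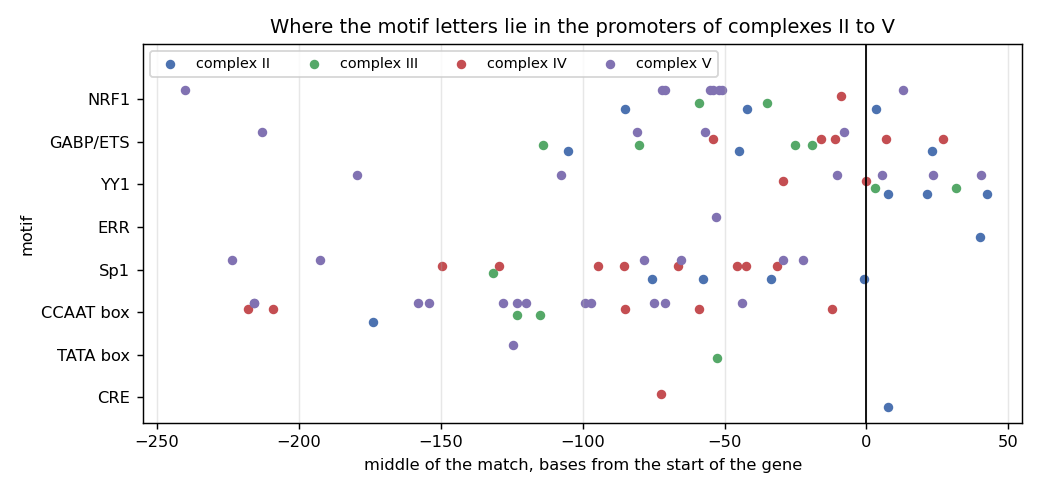
Position of each match in the 33 promoter windows of complexes II to V, as the distance of its middle from the start of the gene in bases (x axis), by motif (y axis) and coloured by complex. The YY1 matches gather around and after the start, whereas all 20 CCAAT matches lie before it.

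The median GC content of the 33 windows was 56.0%, against 61.3% for the genes of the table and 55.3% for all protein-coding genes. It ran from 43.0% in Cox7b to 69.0% in Cox5a. The median ratio of observed to expected CpG was 0.762, against 0.772 for the genes of the table and 0.549 for all protein-coding genes. Cox6a2, Cox6b1, Cox7b and Cox6b2 had the lowest ratios of the 33, at 0.260, 0.329, 0.435 and 0.435.

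Another protein-coding gene started on the opposite strand, pointing away, within 1000 bases of 6 of the 33 starts (18.2%), against 11.4% of the genes of the table. For complex I this held for 9 of 33 starts (27.3%). The start of Sdha lay 80 bases from that of Ccdc127. The start of Sdhd lay 96 bases from that of Timm8b, which codes for a chaperone of mitochondrial protein import. Cox4i1 lay 148 bases from Emc8 and Uqcr10 lay 334 bases from Zmat5. Uqcrh lay 374 bases from Lrrc41. Atp5pf lay 163 bases from Gabpa, which codes for a subunit of GABP, and the Atp5pf window itself holds the GABP/ETS letters.

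All 4 rows of complex II lay above the median of the table. Sdha, the flavoprotein that oxidises succinate, had an average log2 CPM of 8.40, or 337 CPM. Sdhb, the iron-sulfur subunit, had 6.72. Sdhc and Sdhd, which anchor the complex in the membrane and bind ubiquinone, had 7.22 and 6.44. The 4 rows had a median of 6.97 and together held 679 CPM. Sdha took about as many reads as Cox4i1 of complex IV, at an average log2 CPM of 8.40 and 8.37.

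The 10 rows of complex III had a median of 6.60 and held 1112 CPM. The nuclear subunits with redox centres were Cyc1, or cytochrome c1, at 6.89 and Uqcrfs1, the Rieske iron-sulfur protein, at 6.81. The core proteins Uqcrc1 and Uqcrc2, which are related to mitochondrial processing peptidases, had 7.55 and 8.22. Uqcrc2 took the most reads of the 10 rows. Among the small subunits, Uqcrh had 6.80, Uqcr11 6.40, Uqcr10 5.96 and Uqcrq 5.58.

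Uqcrb, another small subunit, stood on 2 rows. The row on chromosome 7 (ENSRNOG00000024967, Rnor_6.0 chr7:71264514-71269869) had an average log2 CPM of 5.97, and 19 of its 20 flanking rows named genes that also flank Uqcrb in RefSeq. The row on chromosome 1 (ENSRNOG00000032204, Rnor_6.0 chr1:94718402-94718876) spans 475 bases and had 4.81, and none of its 20 flanking rows named a gene that flanks Uqcrb in RefSeq. It held 30.9% of the reads of both rows. The sum of both rows was 90.6 CPM. The sequences of the rows were not compared here, and whether they share reads was not tested.

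The 13 rows of complex IV had a median of 7.12 and held 1527 CPM. Cox4i1, the general form of subunit 4, had 8.37 and took the most reads of the 13 rows. Cox5a had 7.15 and Cox5b, which binds zinc, 6.84. Cox6c had 7.19, Cox8a 7.17, Cox7c 7.12 and Cox7b 6.63. Cox7a2l, known for joining complexes III and IV into supercomplexes, had 7.13. Thus 6 of these 8 genes, all but Cox4i1 and Cox7b, lay between 6.84 and 7.19 on the scale of reads. Cox6a1 at 7.26 and the chromosome 1 row of Cox6b1 at 6.67, described below, lay outside that range.

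Some complex IV subunits have genes that differ by tissue. Cox6a1 is the general form of subunit 6a and Cox6a2 the form of heart and skeletal muscle. Cox6a1 had 154 CPM and Cox6a2 had 1.38 CPM, so that Cox6a1 held 99.1% of the reads of the pair. Cox6b2 is the testis form of subunit 6b and had 1.54 CPM, against 102 CPM for Cox6b1 at its RefSeq locus, which held 98.5% of the reads of that pair. The average log2 CPM of Cox6a2 and Cox6b2 was 0.47 and 0.62, above only 1.67% and 1.93% of the rows of the table. Acta1, the only gene of 4 from the list of striated muscle with a row, had 2.99. No row carried the name Cox4i2, Cox7a1, Cox7a2 or Cox8b, so the sums of complex IV leave these genes out.

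Cox6b1 also had a second row, on chromosome 2 (ENSRNOG00000034161, Rnor_6.0 chr2:211337271-211337531), which spans 261 bases. Its average log2 CPM was 3.79, against 6.67 for the row on chromosome 1 (ENSRNOG00000024309). None of its 20 flanking rows named a gene that flanks Cox6b1 in RefSeq, against 19 of 20 for the row on chromosome 1. It held 12% of the reads of both rows, and whether they share reads was not tested.

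The 15 rows of complex V had a median of 6.74 and held 3132 CPM, or 0.313% of the reads in the table. Atp5f1b and Atp5f1a, the beta and alpha subunits that form the catalytic head, had 10.05 and 9.46. They held 1059 and 705 CPM and took the most reads of the 42 rows, above 99.5% and 99.0% of the rows of the table. The central stalk was represented by Atp5f1d at 6.64 and Atp5f1e at 5.84. The peripheral stalk was represented by Atp5pd at 7.27, Atp5po at 7.15 and Atp5pf at 6.74.

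Atp5mc1, Atp5mc2 and Atp5mc3 code for the same mature c subunit of the proton-driven ring, with different import sequences. Atp5mc3 had 207 CPM, Atp5mc2 96.1 CPM and Atp5mc1 77.8 CPM. These are 54.3%, 25.2% and 20.4% of the reads of the 3 genes, not corrected for the length of their transcripts. All 3 genes lay above the median of the table, unlike the tissue forms Cox6a2 and Cox6b2.

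Among the membrane subunits of complex V, Atp5mg had 7.11, Atp5mf 6.81 and Atp5me 6.27. Atp5if1, the inhibitor that blocks ATP breakdown by the enzyme, had 6.44. Atp5md had 3.72, the lowest of the complex. Its row (ENSRNOG00000042869, Rnor_6.0 chr10:89187167-89187474) spans 308 bases, and none of its 20 flanking rows named a gene that flanks Atp5mk, the RefSeq symbol with Atp5md as a synonym. No row carried the name Atp5f1c or Atp5pb, so the sums of complex V leave these genes out.

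The flanking genes of the remaining 39 rows were shared with the RefSeq gene of the same name for 11 to 20 of the 18 to 20 rows looked at. All 3054 bases of Cox6a1 overlap the row of Gatc, which had an average log2 CPM of 4.88. All 7393 bases of Atp5pf overlap the row of Gabpa in the Rnor_6.0 table, and Gabpa had 5.22. The GRCr8 starts of these genes point away from each other, so the annotations differ at this locus. The libraries were strand-specific per the study's methods, which keeps the strand of each read, but the strand setting of the counting is not given in the sources used here. The values of these overlapping genes are therefore uncertain.

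The 42 rows lay on 17 chromosomes. Chromosomes 1 and 7 had 7 rows each, chromosomes 8 and 10 had 4 each and chromosome 5 had 3. The closest pair was Uqcr11 of complex III and Atp5f1d of complex V, 251 kb apart on chromosome 7, and no other neighbours among the rows were within 1000 kb. Cox7b was the only one of the 42 rows on the X chromosome.

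Complexes III, IV and V also hold subunits coded by mitochondrial DNA, and these took more reads than the nuclear rows of the same complex. In complex IV, the 3 mitochondrial genes held 44006 CPM against 1527 CPM for the 13 nuclear rows, a ratio of 28.8. In complex III, Mt-cyb alone held 10796 CPM against 1112 CPM for 10 nuclear rows, a ratio of 9.71. In complex V, Mt-atp6 and Mt-atp8 held 9692 CPM against 3132 CPM for 15 nuclear rows, a ratio of 3.09. These are ratios of reads in poly-A libraries, summed over rows and not divided by length.

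Mitochondrial genes have no introns, so their reads could be divided by the length of the gene. Mt-co1 had 15620 CPM per kb, Mt-co3 14572 and Mt-co2 12353, and these 3 complex IV genes were thus within a narrow range. Mt-atp6 had 12579 CPM per kb and Mt-cyb 9445. Mt-atp8 had 5519 CPM per kb, and 43 of its 204 bases overlap Mt-atp6. The complex I genes ran from 8479 CPM per kb for Mt-nd2 to 167 for Mt-nd6. Mt-nd4l and Mt-nd4, which overlap by 7 bases, had 1927 and 265 CPM per kb. How poly-A selection and the counting of reads at overlaps affected these values was not tested. The order of the mitochondrial genes per kb is therefore an order of reads and need not be one of transcript number.

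**Figure D4:**
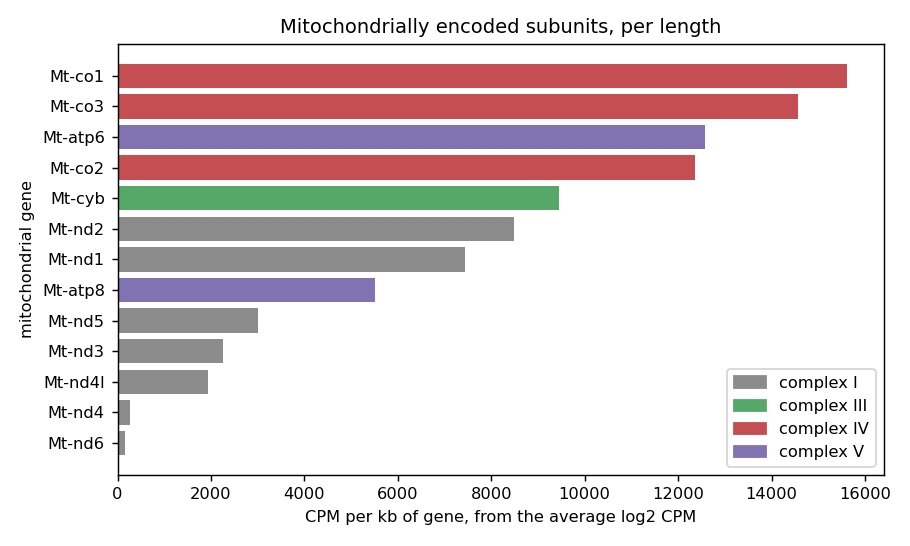
CPM per kb of gene (x axis), computed from the average log2 CPM over all libraries, for the 13 mitochondrial protein genes (y axis), coloured by complex. The 5 longest bars belong to complexes III, IV and V, and the 7 genes of complex I lie at or below 8479 CPM per kb.

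Related lists of genes were read on the same scale of reads. Complex I, the NADH dehydrogenase that feeds the same chain, had 36 nuclear rows with a median average log2 CPM of 6.04, with Ndufs1 at 8.05 and Ndufa4 at 7.56 among them. These 36 rows held 2961 CPM. Ndufa4 was counted there by its name, although its protein is now placed in complex IV. Of 13 genes of the citric acid cycle 12 had a row, with a median of 7.40 and Idh3a at 8.06 among them. All 12 lay above the median of the table, like the 4 rows of complex II, which belongs to that cycle.

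Genes that build or control the complexes had lower values. Of 35 assembly factors of complexes II to V, 30 had a row, with a median of 4.52, and 8 of the 30 (26.7%) lay above the median of the table. Coa5 at 7.69 and Atpaf1 at 6.42 took the most reads of this list. All 11 regulators of nuclear genes for respiration had a row, with a median of 4.83, and 4 of the 11 lay above the median of the table. These 4 were Esrra at 5.26, Gabpa at 5.22, Yy1 at 5.06 and Tfam at 4.99. Nrf1 had 4.16 and Ppargc1a, the coactivator known for raising mitochondrial gene expression, had 4.83. Cycs, which codes for cytochrome c, had no row.

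**Figure D5:**
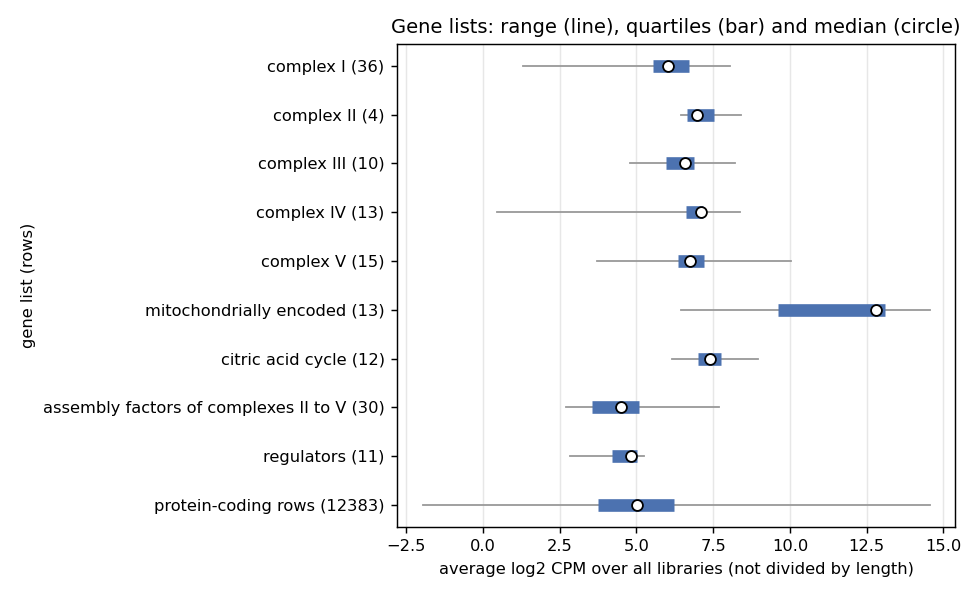
Average log2 CPM over all libraries (x axis) for the rows of each gene list (y axis, number of rows in brackets), with the range as a line, the quartiles as a bar and the median as a circle. The medians of complexes II to V lie between 6.60 and 7.12, above those of the assembly factors at 4.52 and the regulators at 4.83.

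The labelled tissue was read against its markers, which were not tested for a part in the values above. Of 8 markers of the arcuate nucleus 6 had a row, and they held 56.9 CPM in all, with Pomc at an average log2 CPM of 4.67, Tac3 at 4.34, Agrp at 1.42 and Kiss1 at 0.08. All 6 lay below the median of the table. The 4 markers of neurons had a median of 9.28, led by Snap25 at 10.44. The 4 markers of astrocytes had a median of 9.68, led by Aqp4 at 10.22, and the 4 of oligodendrocytes had 10.49, led by Mbp at 12.59. The 4 markers of tanycytes had a median of 5.47, with Vim at 7.32 and Rax at 0.08.

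The 4 markers of microglia had a median of 4.32, led by Csf1r at 6.82. For endothelium 2 of 3 markers had a row, led by Flt1 at 6.28, and for pericytes and smooth muscle the 4 markers had a median of 4.43, led by Rgs5 at 5.35. Markers of nearby regions were also read. The 4 markers of striatum had a median of 5.19 and held 227 CPM, led by Ppp1r1b at 7.07. Of 4 markers of cortex and hippocampus 3 had a row and held 160 CPM, led by Slc17a7 at 7.17. Both of these lists held more reads than the markers of the arcuate nucleus, at 56.9 CPM. For cortex and hippocampus this rested on Slc17a7 alone, at 144 CPM, since Tbr1 had 10.1 CPM and Neurod6 5.27 CPM. In the striatum list Ppp1r1b had 134 CPM, Rgs9 41.4, Drd1 32.3 and Adora2a 19.2. The make-up of the dissected piece was not tested. Of 3 markers of choroid plexus 2 had a row, led by Ttr at 3.06.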

How the data were processed

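The authors trimmed the reads with Trim Galore 0.5.0, aligned them with STAR 2.6.0c to Rnor_6.0 and counted them with HTSeq 0.6.1p2; these names and versions are from the submitters' processing notes. The deposited table gives for each gene an average log2 CPM over all libraries, which the authors computed. That column, the gene names, biotypes and coordinates were used. The table also holds the authors' own comparison of the diets (fold change, F, p-value and FDR of each gene), which was not used. Another 10 columns of per-sample values match no sample label and were used in no step. Tests planned for the diets therefore could not be run, and the depth of each library was not computed here. The study's methods describe the libraries as strand-specific.

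Members and lists were chosen with earlier results of these data known. Motifs and flanking genes were chosen after the table was seen. CPM was taken as 2 to the power of the deposited value, and over all rows these values summed to 1002152. Whether the authors averaged before or after the log, or added a count first, was not determined here. The lowest values are therefore uncertain. Every member could be named; from other lists, the genes with most reads and, chosen after their values were seen, some further genes (among them Agrp, Kiss1, Rax, Nrf1, Ppargc1a and the mitochondrial genes). Some items that this rule selects are not reported here. Lengths of spliced transcripts were not used here, so the planned scaling per length was limited to mitochondrial genes.

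RefSeq tables of GRCr8 gave promoter windows (the first listed for each gene) and flanking genes: 10 rows on each side of a member were looked up among 30 protein-coding genes on each side of the RefSeq gene. Opposite starts were sought from 250 bases inside to 1000 bases before each start. Functions were tested on simulated data. Python 3.11.15 was used with pandas 2.3.3, matplotlib 3.10.9, scipy 1.17.1 and numpy 2.4.6.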

Additional observations from a re-analysis of the deposited data

How the results depend on the processing

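No paired analysis was possible because no column of per-dam values was mapped to a dam. The other settings planned for the comparison of the diets (pseudocount, filter, replicate block, leaving out dams, centring, count models) were not run, nor were those with coding or exon length. The values reported for spliced genes are already those without length scaling.

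Over all rows in place of protein-coding rows, the median of the table was 4.94 in place of 5.02, while the 42 members were the same rows. The counts of rows above the median of the table used 4.94, the value over all rows. Among the regulators, Tfam at 4.99 lay above that value but below 5.02. The other alternatives were chosen after seeing the data. Without the 3 rows whose flanking genes differ from RefSeq, the median was 6.81 over complexes II to V, 6.80 for complex III and 6.77 for complex V, and that of complex IV stayed at 7.12. With only the bases before the start read, YY1 fell from 39.4% to 12.1% of the member windows (4.90% of the table's genes), and ERR and CRE each fell from 6.06% to 3.03%. The share with at least 2 of NRF1, GABP/ETS and YY1 was then 12.1% in place of 27.3%. On the strand of the gene only, the shares of all 7 motifs that are not palindromes were lower by over 1.5 times. GABP/ETS was then found in 12.1% of the member windows against 10.01% of those of the table's genes, ERR in 0.0% against 0.138%, NRF1 in 15.2% against 8.29%, YY1 in 24.2% against 6.97%, Sp1 in 21.2% against 43.5%, CCAAT in 21.2% against 20.6% and TATA in 3.03% against 4.12%. The share with at least 1 of NRF1, GABP/ETS and YY1 was then 36.4% in place of 69.7%. With 33 windows, 1 window is 3.03%, so these shares are coarse.

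The NRF1 and YY1 letters were first searched in longer forms as well. With a closing C, NRF1 was found in 18.2% of member windows and 10.1% of those of the table's genes. With an opening T and T as the open letter it was found in 9.09% and 1.91%. With G as the open letter and GGC at the end, YY1 was found in 3.03% and 2.0%, and in 18.2% of complex I windows.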
